A study of Mus musculus with 2 samples.

Results

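10 genes best known from blood vessel endothelium, Cldn5, Ramp2, Clec1a, Tgm2, Cavin2, Esam, Tek, Tie1, Eng and Emcn, were followed through single bone marrow cells, 10 of the 31053 genes counted. The list was chosen from earlier results on the same cells, in which these genes stood out in stem cells, so their levels are given as a description and no test was run on them. LSK cells (Lin-, Sca-1+, c-Kit+), among which mouse stem cells lie together with multipotent progenitors, had been sorted from the bone marrow of C57BL/6JRj mice aged 3-5 months (young) and 22-28 months (old), and the cells of 4 mice per age were pooled. CITE-Seq read the transcripts of each cell together with DNA tags of antibodies for CD150, CD48 and CLCA3A1, all counted as unique molecular identifiers (UMIs), and each age gave 1 library. The CLCA3A1 tag was indirect: a dye-labelled secondary antibody bound the CLCA3A1 antibody, and a tagged antibody bound that dye. Barcodes end in 1 or 2, called library 1 and library 2 here, and the sources used here do not pair these endings with an age, so old and young cells were not compared. The labels give neither group a genetic change or a treatment. 0 barcode sequences were shared by the libraries.

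A cell entered when mitochondrial genes took less than 10% of its UMIs and more than 1500 genes were seen. Of the 4068 cells that met both limits, 3986 carried tag values, 1497 in library 1 and 2489 in library 2. They held 70507795 UMIs, with 10042.5 UMIs per cell at the 10th and 29660 at the 90th percentile. CD150 was split at its 75th and CD48 at its 25th percentile within each library, which gave 4 gates. The CD150-high CD48-low gate, the surface phenotype by which stem cells are usually sorted, held 172 cells of library 1 and 383 of library 2. The CD150-low CD48-high gate, where most progenitors lie, held 912 and 1615 cells. The thresholds differed between the libraries in opposite directions, since a cell counted as CD150-high from 40 tags in library 1 and from 407 in library 2, and as CD48-low up to 224 and 42 tags. Levels are UMIs per 1000000 UMIs (CPM), summed over the cells of a gate, and all intervals are exact 95% intervals that cover counting error only, since no gate has a replicate within a library.

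Blood stem cells arise in the embryo from hemogenic endothelium, a vessel lining that turns into blood, and adult stem cells keep some endothelial genes active. Of the 10 genes, Tek encodes TIE2, the receptor for angiopoietins, and Tie1 its partner receptor. Eng encodes endoglin, a co-receptor for BMP and TGF-beta ligands, and Ramp2 a small membrane protein that turns the receptor CALCRL into a receptor for adrenomedullin. Cldn5 (claudin-5) and Esam build cell junctions, Cavin2 coats caveolae, Tgm2 cross-links proteins, Emcn (endomucin) is a sialomucin of the vessel surface and Clec1a is a C-type lectin receptor.

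In the GRCm38 annotation (GENCODE vM21), Cldn5 is a single-exon gene at chr16:18776847-18778262 on the plus strand. Cavin2 (chr1:51289126-51302960, plus strand, 2 exons) lies wholly within an antisense gene, 9330175M20Rik, which had 0 UMIs in all 4 gates of both libraries. Ramp2 (chr11:101246028-101259546, plus strand) shares 5840 bases with Vps25 on the same strand, so reads there may belong to either gene. Vps25 was at 0.888 CPM in library 1 and 1.90 CPM in library 2 in the CD150-high CD48-low gate, against 9.77 and 157 CPM for Ramp2. Clec1a is at chr6:129424772-129452000 on the minus strand, and Tgm2 at chr2:158116402-158146436 on the minus strand, with 15896 bases under Rprd1b of the opposite strand. Tek (chr4:94739289-94874976, plus strand) and Tie1 (chr4:118471191-118490061, minus strand) are on the same chromosome. Esam is at chr9:37528078-37538319, Eng at chr2:32646595-32682669 and Emcn at chr3:137341067-137432185, all on the plus strand.

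Promoter sequences, 250 bases before the start site and 50 bases from it on, were found in the RefSeq table (GRCm38.p6) for 6 of the 10 genes. Those of Cldn5 (chr16:18776597-18776896, plus strand) and Cavin2 (chr1:51288876-51289175, plus strand) are shown because the levels of these genes differed widely between the libraries. Those of Tie1 (chr4:118489800-118490099, minus strand) and Emcn (chr3:137340828-137341127, plus strand) are shown because theirs differed little. Each is printed 5′ to 3′ on the gene's strand. Capitals mark matches, on either strand, to 4 motifs: GGAATG (the core of the TEAD motif, the partner of TAZ), GAGGAA (an ETS motif as bound by PU.1), AGATAA, a motif of GATA factors, and TGTTTAC, a motif of FOX factors.
Cldn5: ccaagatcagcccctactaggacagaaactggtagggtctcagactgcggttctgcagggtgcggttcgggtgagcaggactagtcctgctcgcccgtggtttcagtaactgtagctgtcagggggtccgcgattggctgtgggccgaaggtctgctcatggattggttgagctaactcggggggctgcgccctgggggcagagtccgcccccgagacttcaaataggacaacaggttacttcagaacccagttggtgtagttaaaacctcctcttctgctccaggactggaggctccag
Cavin2: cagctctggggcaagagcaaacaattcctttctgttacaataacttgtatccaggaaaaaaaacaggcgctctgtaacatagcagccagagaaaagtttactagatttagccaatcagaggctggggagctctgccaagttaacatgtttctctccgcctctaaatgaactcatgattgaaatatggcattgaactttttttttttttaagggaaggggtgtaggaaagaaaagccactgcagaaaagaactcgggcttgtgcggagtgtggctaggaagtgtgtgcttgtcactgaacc
Tie1: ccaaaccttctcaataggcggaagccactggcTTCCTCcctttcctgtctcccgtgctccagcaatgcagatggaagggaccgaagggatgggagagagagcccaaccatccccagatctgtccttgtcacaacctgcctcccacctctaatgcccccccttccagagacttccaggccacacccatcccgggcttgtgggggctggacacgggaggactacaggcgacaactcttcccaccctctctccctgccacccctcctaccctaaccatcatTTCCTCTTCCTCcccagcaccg
Emcn: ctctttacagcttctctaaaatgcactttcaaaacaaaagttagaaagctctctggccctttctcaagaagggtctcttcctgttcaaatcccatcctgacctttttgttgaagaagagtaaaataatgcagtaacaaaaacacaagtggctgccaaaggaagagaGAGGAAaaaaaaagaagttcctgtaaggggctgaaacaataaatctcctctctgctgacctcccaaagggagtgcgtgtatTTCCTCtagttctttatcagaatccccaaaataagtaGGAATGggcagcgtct
The Cldn5 and Cavin2 windows hold none of the 4 motifs, so they have no capitals. The Tie1 window holds the ETS motif 3 times, and the Emcn window holds it 2 times with 1 TEAD motif. Of 32851 promoters in the table, 28.3% hold the ETS, 14.7% the TEAD, 11.2% the GATA and 3.65% the FOX motif. The Eng window has 1 ETS and the Tek window 1 GATA match, and neither is printed. These are matches of letters only. The table has no entry for Ramp2, Clec1a, Tgm2 and Esam.

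The 10 genes together were highest in the CD150-high CD48-low gate in both libraries. Their sum there was 520 CPM (491 to 551) in library 1 and 1249 CPM in library 2. In the CD150-high CD48-high gate it was 317 and 923 CPM, in the CD150-low CD48-low gate 290 and 729 CPM, and in the CD150-low CD48-high gate 155 and 223 CPM. The CD150-high CD48-low gate exceeded the CD150-low CD48-high gate 3.35-fold (3.13 to 3.59) in library 1 and 5.61-fold (5.43 to 5.81) in library 2, and 5.21-fold over both. The gate was defined by tags alone. In summed counts, fewer cells with a gene and less RNA per cell cannot be told apart. 4 of the 10 genes (Clec1a, Tgm2, Cavin2 and Esam) were at least 2-fold higher there in both libraries on the scale of CPM plus 10, against 0.952% of the 12606 genes with at least 50 UMIs, and all 10 genes passed that minimum. The constant keeps genes of low level from the count: with 1 CPM added in place of 10 it was 8, and the ratios without a constant were over 2 in both libraries also for Cldn5, Ramp2, Tek and Tie1. The share of all genes with 1 CPM added is not given here, so the 8 cannot be set against 0.952%. The median log2 ratio of CPM plus 10 was 1.05 over the 10 genes and -0.00 over all these genes in library 1, and 1.91 and -0.02 in library 2.

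**Figure D1:**
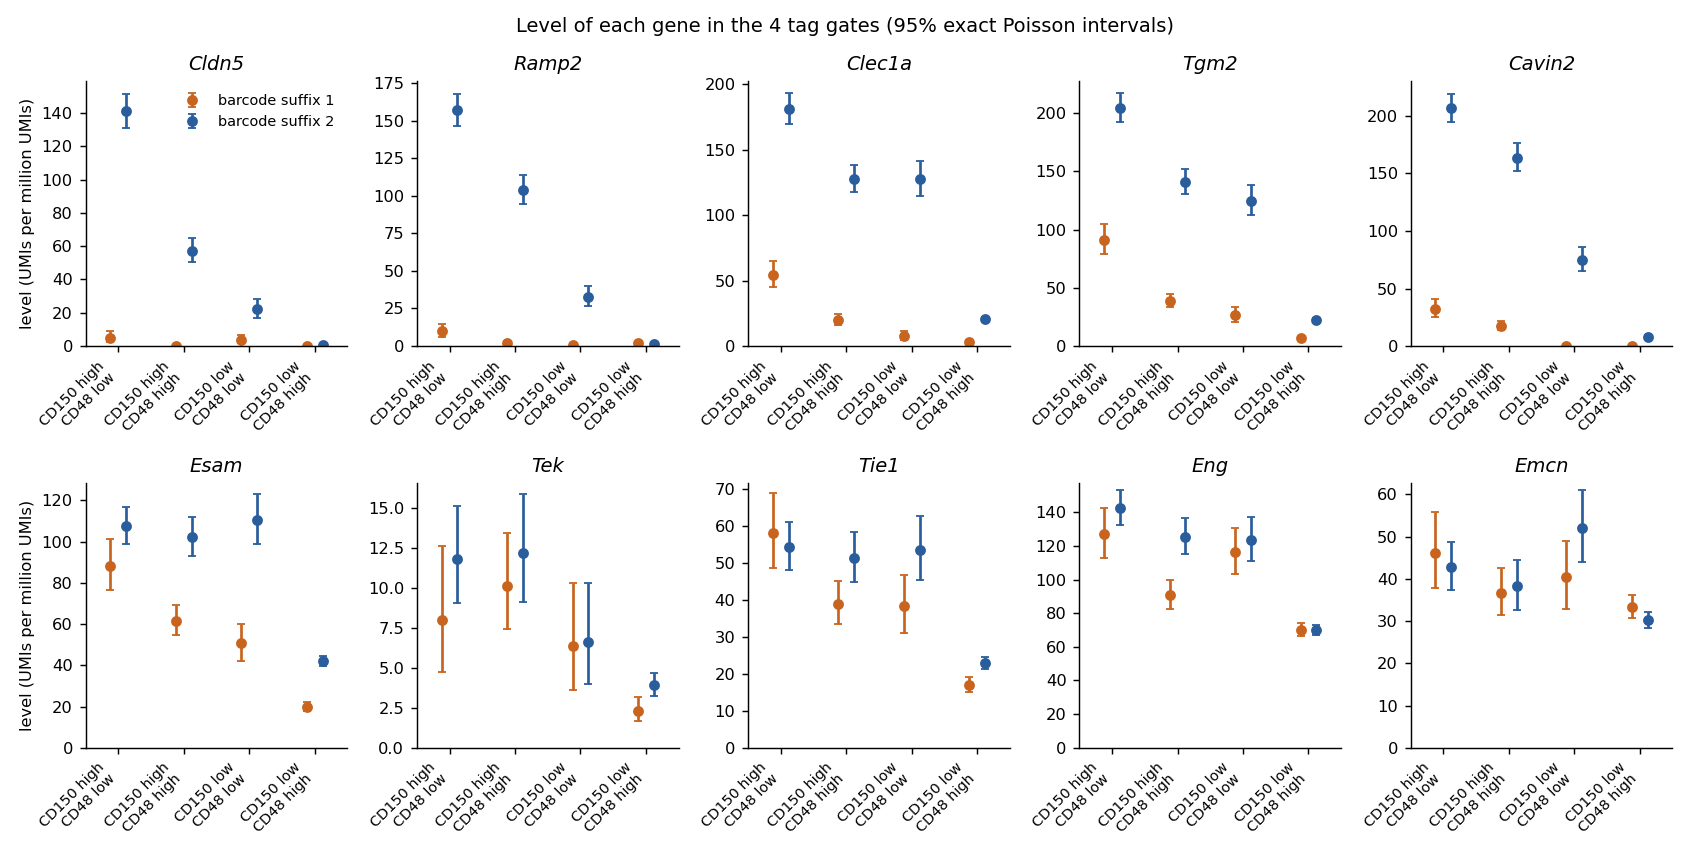
Level of each gene (vertical axes, CPM, from 0) in the 4 tag gates (horizontal axes) for barcode suffix 1 (orange) and 2 (blue), with points for summed counts and bars for exact 95% Poisson intervals. In the CD150-high CD48-low gate the 5 genes of the upper row lie far higher in suffix 2 than in suffix 1, while Tek, Tie1, Eng and Emcn overlap, and Cldn5 of suffix 2 falls from 141 to 0.584 CPM across the gates.

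Among the junction genes, Cldn5 differed most between gates. In library 1 it was at 4.88 CPM in the CD150-high CD48-low gate (11 UMIs), 0 in the CD150-high CD48-high gate, 3.56 in the CD150-low CD48-low gate (9 UMIs) and 0.0567 in the CD150-low CD48-high gate (1 UMI). In library 2 the same gates gave 141, 57.4, 22.2 and 0.584 CPM. Cldn5 was thus nearly absent from CD150-low CD48-high cells of both libraries, and in library 2 each step down that order exceeded counting error. The ratio of the CD150-high CD48-low to the CD150-low CD48-high gate was 242 (152 to 410) in library 2 and 86.2 in library 1, where 1 UMI in the lower gate left an interval of 12.5 to 3708. The 11 UMIs of library 1 lay in 3 cells, 8 of them in 1 cell, and the intervals do not cover such spread between cells.

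Esam, an adhesion molecule of endothelial junctions that is also used as a stem cell marker, was spread more widely. It was at 88.4, 61.7, 50.7 and 19.9 CPM in the 4 gates of library 1, in the same order, and at 107.5, 102, 110 and 42.1 CPM in library 2. In library 2 the 3 gates that are CD150-high or CD48-low did not differ beyond counting error, and the CD150-low CD48-high gate was the low one.

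Cavin2, Clec1a and Tgm2 were each highest in the CD150-high CD48-low gate in both libraries. Cavin2 was at 32.4 CPM in the CD150-high CD48-low gate of library 1, 17.6 in the CD150-high CD48-high gate, 0 in the CD150-low CD48-low gate and 0.227 in the CD150-low CD48-high gate. In library 2 it was at 207, 164, 75 and 8.11 CPM. Cavin2 therefore followed CD150 in library 1: both CD150-high gates had it, and the CD150-low gates had 4 UMIs in all. Clec1a was at 54.2, 20.2, 7.52 and 3.46 CPM in library 1 and at 181, 127.5, 127.5 and 20.6 CPM in library 2. Tgm2 was at 91.5, 38.9, 26.5 and 6.92 CPM in library 1 and at 205, 141, 125 and 22.5 CPM in library 2. For Clec1a and Tgm2 the intermediate gates of library 2 did not differ from each other beyond counting error.

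Ramp2 was at 9.77, 1.93, 0.396 and 1.81 CPM in the gates of library 1 and at 157, 104, 32.7 and 1.52 CPM in library 2, again ordered as CD150-high CD48-low, CD150-high CD48-high, CD150-low CD48-low and CD150-low CD48-high. In the last of these gates the libraries overlapped, and in each of the others library 2 was higher.

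Both TIE receptors were higher in the CD150-high CD48-low gate than in the CD150-low CD48-high gate. Tie1 was at 58.2 and 17.1 CPM in library 1, a ratio of 3.41 (2.76 to 4.20), and at 54.3 and 22.9 CPM in library 2, a ratio of 2.37 (2.06 to 2.72). Tek was at 7.99 and 2.32 CPM in library 1 and at 11.8 and 3.89 CPM in library 2, with ratios of 3.44 (1.86 to 6.12) and 3.03 (2.19 to 4.15). Tek rested on 18 UMIs in the CD150-high CD48-low gate of library 1 and 62 in that of library 2, and its highest value lay in the CD150-high CD48-high gate (10.1 and 12.2 CPM), a difference within counting error.

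Endoglin and endomucin differed least between gates. Eng was at 127 against 70.1 CPM in library 1, 1.81-fold (1.59 to 2.06), and at 143 against 70.2 CPM in library 2, 2.03-fold (1.87 to 2.21). Emcn was at 46.2 against 33.3 CPM in library 1, 1.39-fold (1.11 to 1.71), and at 42.7 against 30.2 CPM in library 2, 1.42-fold (1.22 to 1.64). The highest Emcn value of library 2 lay in the CD150-low CD48-low gate (52.1 CPM), within counting error of the CD150-high CD48-low gate. Both genes were thus well present in CD150-low CD48-high cells, where Cldn5, Ramp2 and Tek were under 4 CPM.

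The ratios between the libraries ran in a gradient over the 10 genes. In the CD150-high CD48-low gate, library 2 exceeded library 1 28.9-fold for Cldn5 (16.1 to 58.1), 16.1-fold for Ramp2 (10.5 to 25.8), 6.38-fold for Cavin2 (5.03 to 8.20), 3.34-fold for Clec1a (2.76 to 4.07) and 2.24-fold for Tgm2 (1.92 to 2.61). In library 1, Cldn5 rested on 11 UMIs, 8 of them in 1 cell, and Ramp2 on 22 UMIs, so the sizes of their ratios are less sure than the intervals say. The ratio was 1.22 for Esam (1.03 to 1.44), 1.47 for Tek (0.860 to 2.65), 1.12 for Eng (0.979 to 1.29), 0.934 for Tie1 (0.757 to 1.16) and 0.925 for Emcn (0.730 to 1.18). The interval of Tek held the whole interval of Tgm2, so these neighbours did not differ beyond counting error. On the scale of CPM plus 10, the 5 first-named genes were at least 2-fold higher in library 2, against 0.941% of the 10415 genes with at least 30 UMIs in the gate. Cldn5 stood 2nd and Ramp2 5th of these genes, Cavin2 14th, Clec1a 35th and Tgm2 84th, whereas Tie1 (5317th) and Emcn (5464th) stood near the middle.

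**Figure D2:**
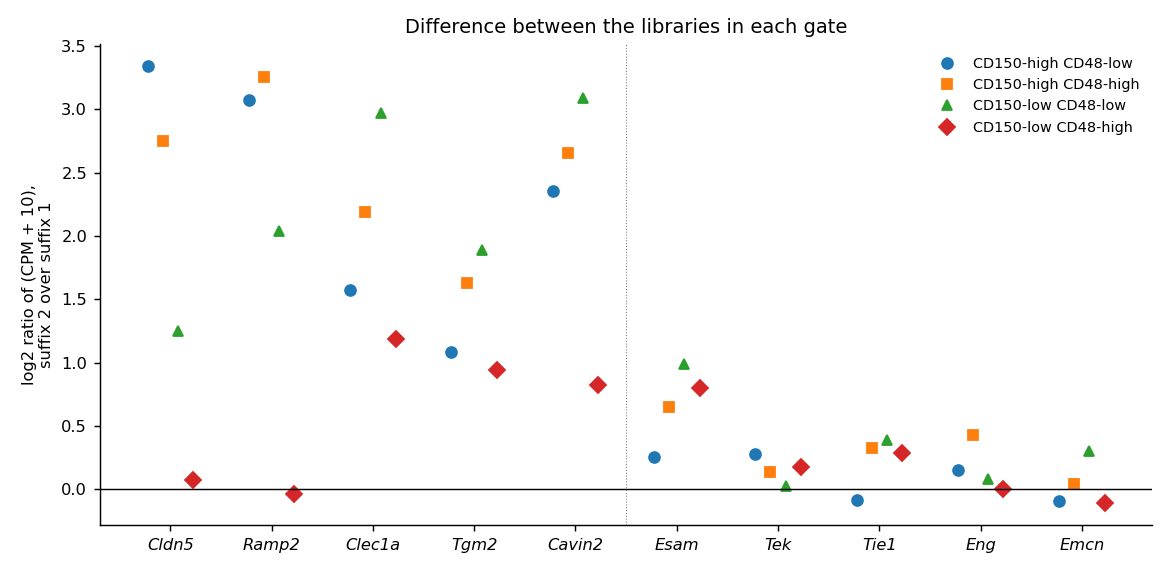
Log2 ratio of CPM plus 10, suffix 2 over suffix 1 (vertical axis), for the 10 genes (horizontal axis) in each tag gate, with 1 point per gate. Cldn5, Ramp2, Clec1a, Tgm2 and Cavin2, left of the dotted line, lie between 1.08 and 3.34 in the CD150-high CD48-low gate, and the 5 genes to the right lie between -0.09 and 0.28.

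The difference between the libraries also depended on the gate. In the CD150-high CD48-high gate, some genes that did not differ by 2-fold in the CD150-high CD48-low gate were also higher in library 2, 1.66-fold for Esam (1.43 to 1.93), 1.38-fold for Eng (1.22 to 1.57) and 1.32-fold for Tie1 (1.08 to 1.61). Emcn, at 36.7 and 38.2 CPM, and Tek, at 10.1 and 12.2 CPM, had overlapping intervals there. In the CD150-low CD48-high gate, Ramp2 of library 2 was 0.840 of library 1 (0.525 to 1.36), so its excess lay in the other gates. In that same gate Clec1a (5.95-fold), Tgm2 (3.26-fold) and Esam (2.11-fold) were higher in library 2, and Cavin2 rested on 4 UMIs in library 1 (35.8-fold, 13.8 to 132). In the CD150-low CD48-low gate, Cavin2 was at least 63.2-fold higher in library 2, with library 1 at 0 UMIs and set to 3 counts.

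The cells of the gate also differed between the libraries in other respects. CD34 transcript, an early progenitor marker, was at 202 CPM in library 1 and 40.3 CPM in library 2, and Flt3, a progenitor receptor, at 13.3 and 2.09 CPM, while Ighm of the same lymphoid list was at 4.44 and 12.5 CPM. Of the 10 stem cell markers, 3 were at least 2-fold higher in library 2, against 0.941% of all genes, Procr at 115 and 246 CPM, Slamf1 at 16.9 and 64.2 CPM and Mycn at 126 and 279 CPM. Hlf of the same list was lower in library 2, at 432 and 322 CPM, a ratio of 0.744 (0.687 to 0.806). The ratios of Fgd5, Ctnnal1 and Meis1 had intervals that held 1. Vwf (28.9 and 131 CPM) and Itgb3 (12.9 and 54.1 CPM), 2 of 8 megakaryocyte genes over the minimum, were at least 2-fold higher too. Others of that list were lower in library 2 beyond counting error, Pf4 at 36.4 and 19.2 CPM, Gp5 at 9.77 and 2.66 and Gp9 at 39.1 and 25.6 CPM. Prtn3 of the myeloid list was at 481 and 1004 CPM, also at least 2-fold higher. The part of all these genes in the difference of the 10 genes was not tested. The median CD150 tag count was 189.5 and 775. With thresholds common to both libraries, an alternative chosen after the values were seen, 33 cells of library 1 and 614 of library 2 fell into the gate. Cldn5 was then at 27.9 and 115 CPM, Ramp2 at 38.0 and 136, Cavin2 at 88.6 and 194, Clec1a at 101 and 170 and Tgm2 at 101 and 188 CPM. All 5 values were higher in library 2, and Cldn5, Ramp2 and Cavin2 by at least 2-fold on the scale of CPM plus 10, while Clec1a and Tgm2 were not. The part of gate purity in the difference between the libraries was not tested otherwise, and age and library preparation cannot be told apart.

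CLCA3A1, the surface protein that the study used to divide stem cells, took no part in the gates. Within the CD150-high CD48-low gate of each library, cells were ranked by this tag and divided into 3 parts of like size, CLCA3A1-low, CLCA3A1-mid and CLCA3A1-high, with bounds at 12 and 54 tags in library 1 and at 160 and 262 tags in library 2. The transcript Clca3a1 followed the tag, at 1.35, 1.38 and 17.8 CPM from CLCA3A1-low to CLCA3A1-high cells in library 1 and at 61.6, 81.0 and 129 CPM in library 2. The parts held 60, 55 and 57 cells in library 1 and 128, 129 and 126 in library 2.

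In library 1, 4 of the 10 genes were at least 1.5-fold higher in CLCA3A1-high than in CLCA3A1-low cells, against 5.00% of the 10415 genes. Cavin2 was at 9.45, 13.8 and 71.2 CPM from CLCA3A1-low to CLCA3A1-high cells, Clec1a at 28.4, 28.9 and 102 CPM, and Tgm2 at 63.4, 82.7 and 126 CPM. For these 3 genes the CLCA3A1-low and CLCA3A1-mid cells did not differ beyond counting error, and the CLCA3A1-high cells stood above both. CLCA3A1-high exceeded CLCA3A1-low cells 7.54-fold for Cavin2 (3.43 to 19.6), 3.59-fold for Clec1a (2.20 to 6.11) and 1.99-fold for Tgm2 (1.39 to 2.87). Cldn5 had 0, 2 and 9 UMIs in the 3 parts, but 8 of the 9 lay in 1 cell. Without that cell, left out after the values were seen, 1 UMI remained in CLCA3A1-high cells, the log2 ratio of CPM plus 10 went from 1.10 to 0.18, and Cldn5 was no longer among the 4 genes. Esam (1.0), Ramp2 (1.05), Eng (1.10), Tek (1.13), Tie1 (1.19) and Emcn (0.916) had ratios of CLCA3A1-high to CLCA3A1-low cells whose intervals all held 1. With Cldn5 counted, the number of genes in library 1 was also 4 when the same cells were ranked by their unmapped tags and 5 when they were ranked by the CD150 tag, both chosen after the data were seen, against 6.12% and 6.57% of all genes, and it was 2 with the CLCA3A1 tag as a share of all tags, against 4.57%. It is therefore not shown to be particular to CLCA3A1. Of the 10 stem cell markers on a separate list, 5 also passed the 1.5-fold limit in library 1, among them Mycn (77 and 184 CPM in CLCA3A1-low and CLCA3A1-high cells) and Slamf1 (10.8 and 29.3 CPM), the gene of CD150. Hlf of that list was at 521 CPM (470 to 576) in CLCA3A1-low cells, above the 432 CPM of the whole gate. Procr, Hlf, Mecom, Fgd5 and Meis1 did not pass the limit. 2 defining endothelial genes passed it too, Sox18 (5.4 and 17.8 CPM) and Ecscr (18.9 and 39.4 CPM). In library 2, 0 genes of these lists passed it, and their part in the values of the 10 genes was not tested.

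In library 2, 0 of the 10 genes were 1.5-fold higher in CLCA3A1-high cells, against 1.09% of all genes. Cldn5 went the other way, at 177, 147 and 106 CPM from CLCA3A1-low to CLCA3A1-high cells, a ratio of 0.598 (0.496 to 0.720). This interval covers counting error only and not the spread between cells, over which the variance of Cldn5 was 11.6 times its mean. The cell with most Cldn5 UMIs (49) was CLCA3A1-high. Without it, left out after the values were seen, CLCA3A1-high cells were at 80.6 CPM, and the log2 ratio of CPM plus 10 went from -0.69 to -1.04. Of cells thinned to 8000 UMIs, 34.2% (25.8% to 43.4%) of CLCA3A1-low, 34.9% (26.7% to 43.8%) of CLCA3A1-mid and 24.8% (17.5% to 33.3%) of CLCA3A1-high cells held Cldn5, with intervals that overlapped, so a lower share in CLCA3A1-high cells was not shown. Clec1a was at 199.8, 183 and 163 CPM, a ratio of 0.818 (0.697 to 0.960). Cavin2 was at 206, 229 and 186 CPM and Tgm2 at 208, 206 and 200.1 CPM, with ratios of 0.904 (0.776 to 1.05) and 0.962 (0.828 to 1.12). Ramp2 was at 154, 137 and 178 CPM, 1.16-fold (0.977 to 1.37). Esam, Tek, Tie1, Eng and Emcn had ratios between 0.984 and 1.11 with intervals that held 1. In both libraries at once, 0 of the 10 genes passed the 1.5-fold limit, against 0.134% of all genes.

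**Figure D3:**
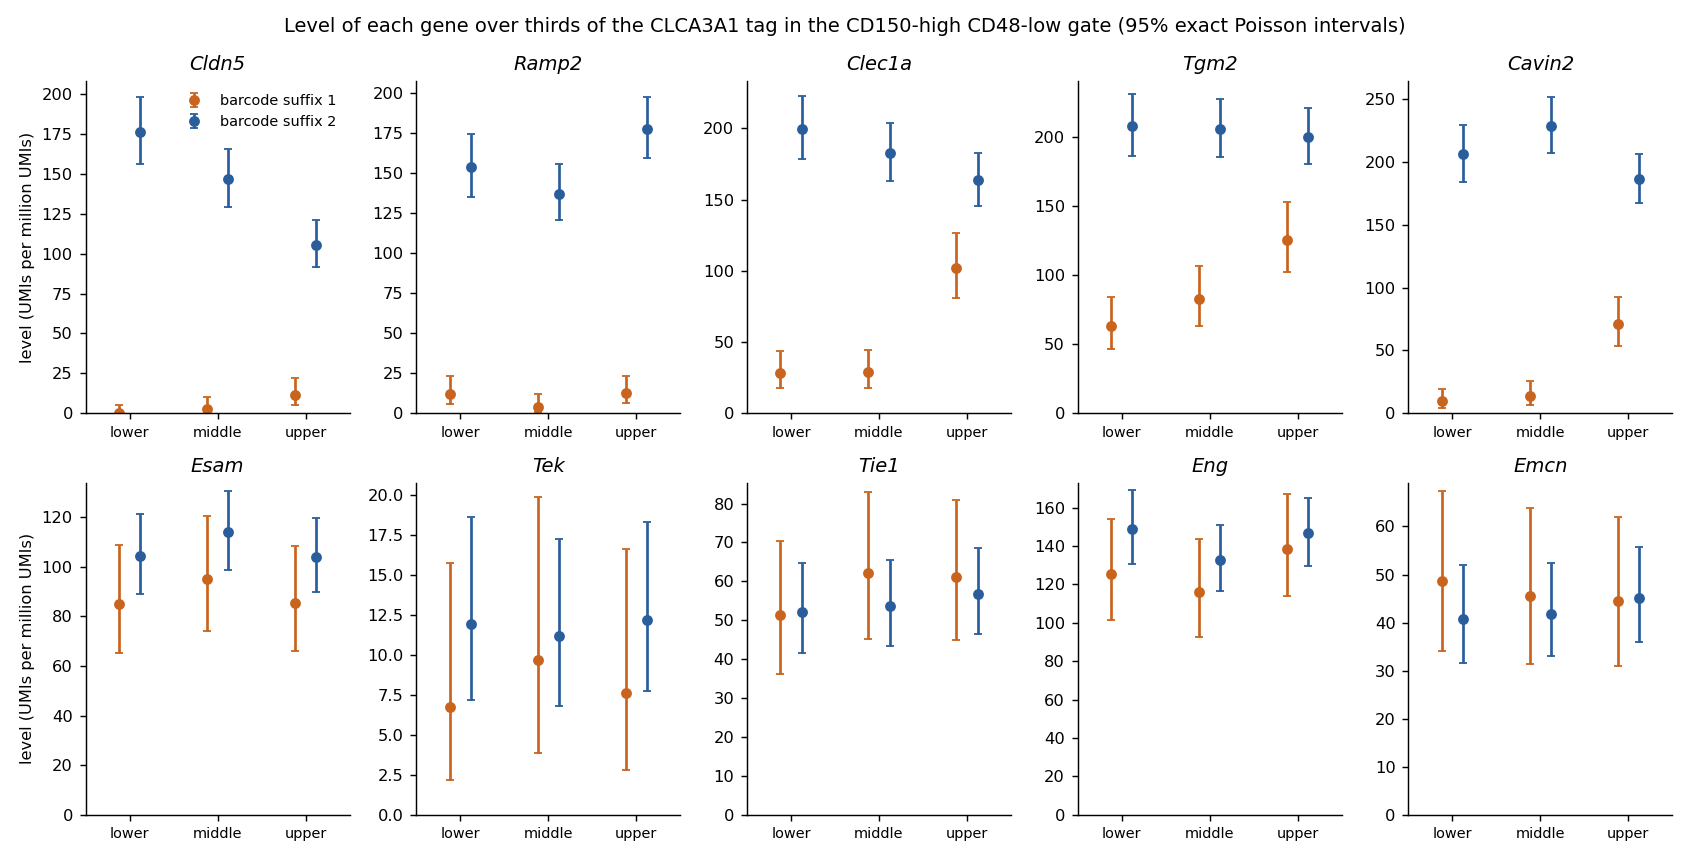
Level of each gene (vertical axes, CPM, from 0) in the lower, middle and upper of 3 parts by CLCA3A1 tag (CLCA3A1-low, -mid and -high cells) within the CD150-high CD48-low gate (horizontal axes), for suffix 1 (orange) and suffix 2 (blue), with exact 95% Poisson intervals. In suffix 1 Clec1a, Tgm2 and Cavin2 are highest in the upper part, and in suffix 2 Cldn5 goes from 177 CPM in the lower to 106 CPM in the upper part.

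Summed over the 10 genes, the ratio of CLCA3A1-high to CLCA3A1-low cells was 1.53 (1.33 to 1.77) in library 1 and 0.920 (0.866 to 0.977) in library 2, and the ratio over both libraries, 1.01, lay between them. The CD150 tag moved with the CLCA3A1 tag, with medians of 113, 122 and 443 tags in library 1 and 685, 779 and 906.5 in library 2. The part of CD150 in these differences was not tested. The libraries overlap in CLCA3A1 counts, most evenly from 55 to 160 tags, with 43 cells of library 1 and 97 of library 2. Cavin2 was at 71.9 and 213 CPM, Clec1a at 90.7 and 210, Tgm2 at 128 and 213, Ramp2 at 13.7 and 158 and Cldn5 at 13.7 and 155 CPM, while Tie1 was at 58.2 and 52.5 and Emcn at 46.2 and 43.5 CPM. The 8 Cldn5 UMIs of library 1 in this range lay in 1 cell. Cldn5, Ramp2 and Cavin2 were higher in library 2 also in each of the 4 other ranges of tag counts. Clec1a and Tgm2 were so in 3 of them, and above 262 tags, with 3 cells of library 1, Clec1a was at 232 and 163 CPM and Tgm2 at 209 and 200.1 CPM.

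The values in library 2 depended on how the gate was drawn. With both tags split at the median, 4 genes (Cldn5, Ramp2, Tgm2 and Cavin2) were at least 1.5-fold higher in CLCA3A1-high cells in place of 0, against 1.14% of the 11829 genes over the minimum there. With the stricter cell filter (under 5% mitochondrial UMIs and over 2500 genes) 4 were also (Ramp2, Cavin2, Esam and Eng), against 15.6% of 4915 genes, with 37 cells of library 2 in the gate and 8 of the 10 genes over the minimum. At the median split the log2 ratio of CPM plus 10 for Cldn5 in library 2 was 0.90 in place of -0.69, and with the cells holding a UMI of a defining endothelial gene left out it was 0.46. In library 1, the Cldn5 value turned from 1.10 to -0.18 when the CLCA3A1 tag was taken as a share of all antibody tags.

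Within single cells, Cldn5 was concentrated in few. Of the 383 cells of library 2 in the CD150-high CD48-low gate, 246 had 0 Cldn5 UMIs, 89 had 1 to 4 and 48 had 5 or more. The last 48 cells, 12.5% of the gate, held 74.6% of the Cldn5 UMIs, and 1 cell had 49. The variance of Cldn5 counts over cells was 11.6 times the mean, compared with 3.54 for Ramp2, 2.48 for Cavin2, 1.57 for Tgm2, 1.53 for Clec1a and 1.42 for Esam. For Tek, Tie1, Eng and Emcn it was 1.01 to 1.14, close to the 1 that a Poisson count gives. In library 1, 3 of 172 cells held the 11 Cldn5 UMIs, and the variance over the mean was 6.25.

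The other genes were also compared between cells with more and less Cldn5. Between the 246 cells with 0 Cldn5 UMIs and the 48 with 5 or more in library 2, Cavin2 was at 196 and 195 CPM, Tgm2 at 198 and 204, Clec1a at 171 and 208, Tie1 at 53.7 and 46.9 and Eng at 146 and 139 CPM, with overlapping intervals for each. Ramp2 was at 135 and 158 CPM, and at 219 CPM (193 to 248) in the 89 cells between. Cavin2 was also higher in these than in the Cldn5-free cells, at 245 CPM (218 to 275) against 196 CPM (181 to 211). Procr, a stem cell marker, was at 226 CPM (210 to 242) and 308 CPM (268 to 353), and Clca3a1 at 101 (90.3 to 112) and 68.9 CPM (50.6 to 91.7). The median CLCA3A1 tag count was 222.5, 209 and 166 from the Cldn5-free to the Cldn5-rich cells. These classes were drawn after the values were seen.

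To compare the share of cells with a UMI at 1 depth, each cell was thinned to 8000 UMIs, which left out 119 cells. Cells with at least 3 Dntt UMIs, early lymphoid progenitors that should lack these genes, served as the background. In the CD150-high CD48-low gate, Cldn5 was seen in 1.88% of cells in library 1 and 31.3% in library 2 (1.74% and 35.8% before thinning), against 0 of 376 and 0 of 334 Dntt cells. The exact intervals of these 0 shares reach up to 0.976% and 1.10%. Before thinning, 0% and 0.599% of Dntt cells held it. In library 1 the share of the gate rested on 3 of 160 cells (0.388% to 5.38%), an interval that overlaps that of the Dntt cells (0% to 0.976%), and it is not read as expression. Cavin2 was seen in 17.5% and 73.0% (20.9% and 82.5% before thinning), against 0.266% and 1.20% of Dntt cells. Tgm2 was seen in 49.4% and 76.2% (65.7% and 90.1%), against 0.798% and 1.80% of Dntt cells. Dntt cells were deeper before thinning, with medians of 21223 and 22206 UMIs against 12917 and 13477 in the gate.

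The shares of the other genes covered a wide range. Ramp2 was seen in 4.38% of the cells of the gate in library 1 (1.78% to 8.81%), which overlaps its 2.39% in Dntt cells (1.1% to 4.5%), and in 53.5% in library 2, against 1.5%. Clec1a was seen in 26.3% and 71.9% (0.532% and 4.19% of Dntt cells), Esam in 45.0% and 56.7% (5.05% and 6.59%) and Tie1 in 38.8% and 33.4% (4.26% and 3.59%). Tek was seen in 8.13% and 8.56% (0.532% and 0.898%). Eng, seen in 66.3% and 67.9% of the gate, was also in 34.8% and 36.8% of Dntt cells, and Emcn, seen in 30.6% and 29.7%, was in 22.3% and 18.9%. For these 2 genes the Dntt cells gave no low background.

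Per thinned cell, the median number of the 10 genes detected was 3 in library 1 and 5 in library 2 in the CD150-high CD48-low gate, and 5 over both libraries together. It was 2 and 4 in the CD150-high CD48-high gate, 2 and 3 in the CD150-low CD48-low gate and 1 and 1 in the CD150-low CD48-high gate. At least 5 of the 10 were detected in 10.6% and 66.3% of the CD150-high CD48-low cells, and in 0% and 3.47% of the CD150-low CD48-high cells. The phi coefficient between the detection of any pair within the gate lay between -0.146 and 0.223 over the 45 pairs and both libraries. For rarely seen genes phi stays near 0 even without a shared cell, as for Cldn5 and Tek in library 1 (0 shared cells, -0.041). These values therefore cannot tell whether the genes sort into separate cells. Cells share a library and such counts are sparse, so these weak values are a description.

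**Figure D4:**
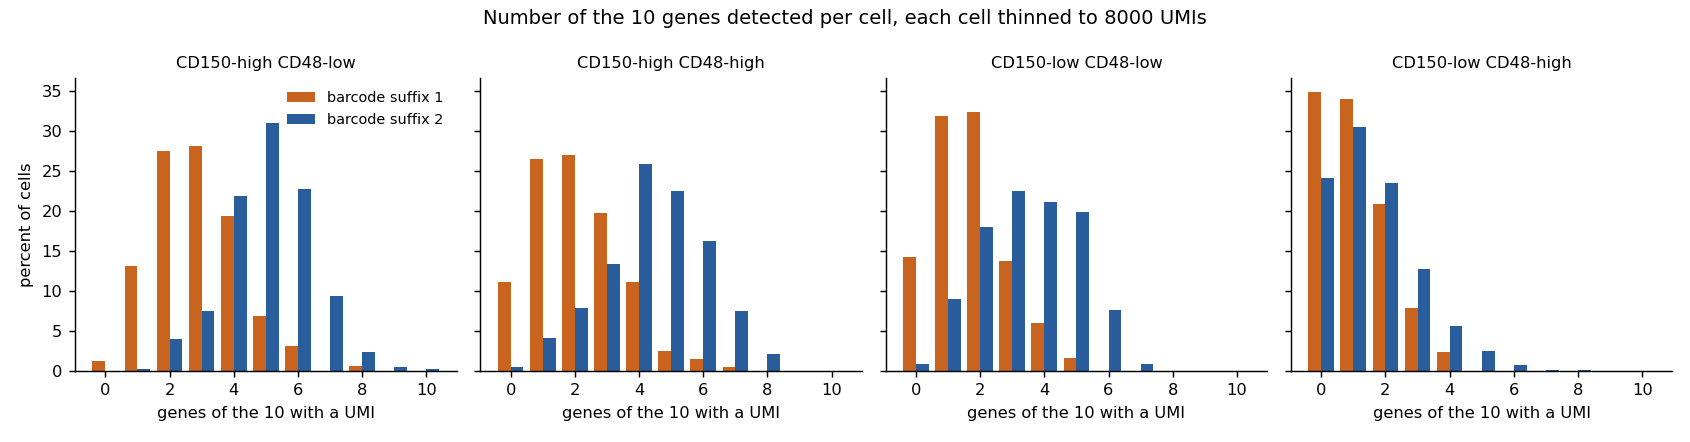
Number of the 10 genes with at least 1 UMI (horizontal axes) against the percent of cells (vertical axis, from 0) in each tag gate, each cell thinned to 8000 UMIs, for suffix 1 (orange) and suffix 2 (blue). In the CD150-high CD48-low gate the medians are 3 and 5 genes, and in the CD150-low CD48-high gate 1 and 1.

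Partners of these proteins, on lists by role, were counted by the same 2-fold limit in both libraries, which 0.952% of the 12606 genes passed upward. Calcrl, the receptor that RAMP2 serves, was at 36.0 and 34.4 CPM in the CD150-high CD48-low gate of libraries 1 and 2 and at 51.2 and 38.0 CPM in the CD150-low CD48-high gate. Ramp1, which makes a CGRP receptor of CALCRL, was at 295 and 94.4 CPM against 620 and 472 CPM, so it was lower where Ramp2 was higher, with ratios of 0.477 (0.440 to 0.516) and 0.20 (0.182 to 0.219). Among the 6 genes of that receptor system, 2 passed the minimum of UMIs, 0 were at least 2-fold higher in the gate in both libraries and 1, Ramp1, was at least 2-fold lower, as were 1.52% of all genes tested. The ligand gene Adm had 0 UMIs in the gate in both libraries.

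Of 5 genes of the TIE system, 2 passed the minimum and 0 were 2-fold different. Angpt1, the ligand that activates TIE2, was at 377 and 300 CPM in the CD150-high CD48-low gate and 184 and 196 CPM in the CD150-low CD48-high gate, 2.05-fold (1.90 to 2.21) and 1.53-fold (1.45 to 1.62) before the constant was added. Angpt2, its antagonist in vessels, had 3 and 4 UMIs in the gate. Of 16 genes around endoglin, 12 passed the minimum and 1, Tgfbr3, which encodes betaglycan, was higher. Bmpr2 was at 32.4 and 32.9 CPM against 19.3 and 19.1, whereas Tgfb1 was at 109 and 110 CPM against 197 and 227.

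Of 7 caveolar genes other than Cavin2, 3 passed the minimum and 2 were at least 2-fold higher in the gate in both libraries, Cavin1 at 31.5 and 30.8 CPM against 7.37 and 9.69, and Cavin3 at 59.9 and 82.2 CPM against 17.2 and 24.5. Cav2, a caveolin, was at 5.77 and 14.1 CPM against 5.84 and 6.03. Of 14 junction genes, 13 were in the matrix, 8 passed and 1, Jam3, was higher, at 23.5 and 42.3 CPM against 4.71 and 5.35. Jam2 was at 13.3 CPM in library 1 and 65.9 CPM in library 2, a ratio between the libraries of 4.95 (3.4 to 7.44), and was the 1 junction gene at least 2-fold higher in library 2, of 6 over the minimum there and against 0.941% of all genes.

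Of 7 C-type lectins near Clec1a, 6 were in the matrix, 4 passed the minimum, 1 (Clec2d, at 253 and 338 CPM against 110 and 136) was higher and 1 (Clec12a, at 2.22 and 0.380 CPM against 36.3 and 24.7) was lower. Of 5 transglutaminase genes other than Tgm2, 2 passed and 0 differed 2-fold in both libraries, and Tgm1 had 14 and 24 UMIs in the gate. Of 5 sialomucins, 4 passed, 0 were higher and 1, Cd34, was lower. Among 15 further endothelial genes known in stem cells, 13 passed and 1 was higher, Vwf, the gene of von Willebrand factor, at 28.9 and 131 CPM against 1.19 and 4.18. Lmo2, Fli1 and Egfl7, which are shared by both lineages, were at 1.22, 1.41 and 0.649 times the CD150-low CD48-high level in library 1 and at 1.57, 1.46 and 0.791 times in library 2.

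The cells of the gate lacked part of the defining genes of endothelium and carried others. Of 18 such genes, 11 had 0 UMIs in the gate in library 1 and 7 in library 2. Cdh5, the gene of VE-cadherin, had 0 and 1 UMI, Flt1 had 2 and 0, Stab2, Sox17, Gpihbp1 and Aplnr had 0 in both, and Lyve1 had 0 and 4. Ecscr (53 and 194 UMIs), Sox18 (21 and 130), Robo4 (43 and 70) and Kdr (8 and 57) made up most of the list's sum of 57.3 and 89.6 CPM, which was 19.4 and 20.7 CPM in the CD150-low CD48-high gate. 1 of the 6 genes over the minimum, Ecscr, was at least 2-fold higher in the gate in both libraries. At least 1 UMI of these 18 genes was found in 47.1% and 64.8% of the gate's cells with any of the 10 genes.

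**Figure D5:**
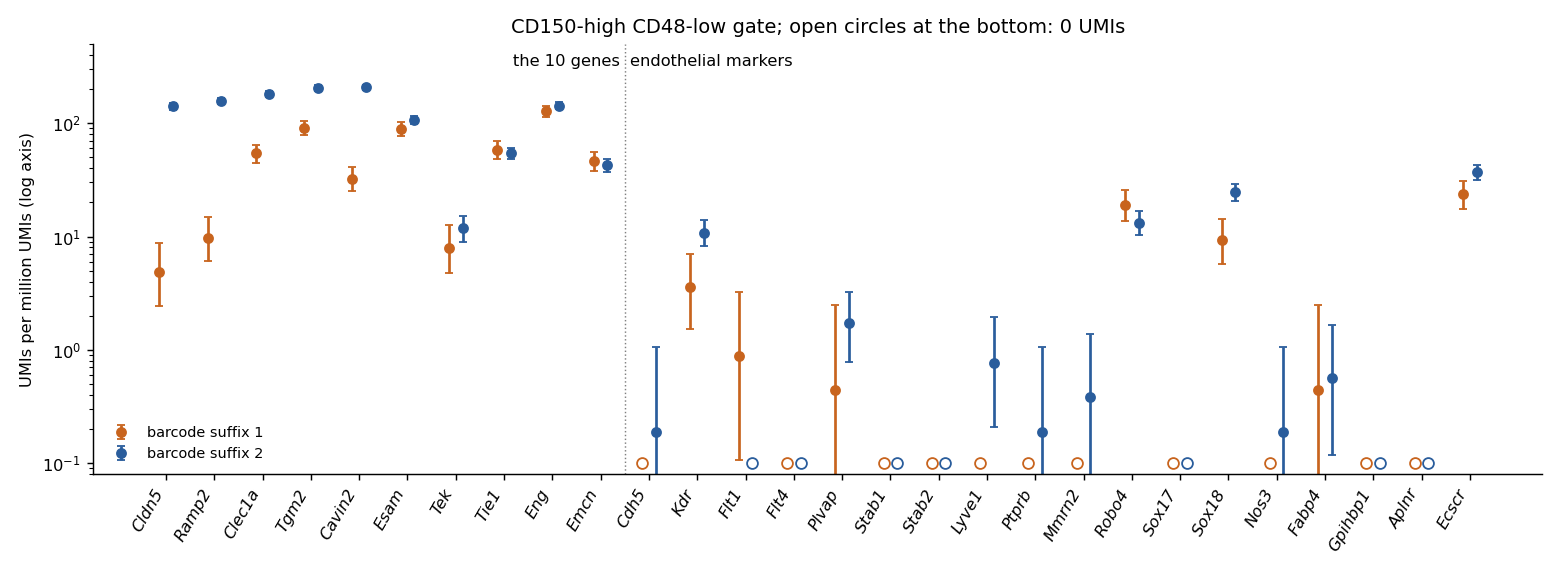
Level (vertical axis, CPM, log scale) in the CD150-high CD48-low gate of the 10 genes, left of the dotted line, and of 18 defining endothelial genes, right of it, for suffix 1 (orange) and suffix 2 (blue), with exact 95% Poisson intervals. Open circles stand for 0 UMIs. Cdh5, Flt1, Stab1, Stab2, Sox17 and other vessel genes lie at or near 0, while Cavin2 and Tgm2 reach 207 and 205 CPM.

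Ptprc, the gene of the blood cell marker CD45, was detected in 79.4% and 80.9% of the gate's cells with any of the 10 genes. In the 92 and 135 cells of the gate with 0 UMIs of every defining endothelial gene, the 10 genes summed to 458 and 1257 CPM, against 520 and 1249 CPM in the whole gate. In the 29 and 92 cells with UMIs of 2 such genes they summed to 647 and 1235 CPM, and in the 2 and 13 cells with 3 such genes to 479 and 1356 CPM. Among stem cell markers, 7 of 10 (Procr, Mecom, Fgd5, Hoxb5, Slamf1, Mllt3 and Mycn) were at least 2-fold higher in both libraries, against 0.952% of all genes tested. Slamf1 of this list is the gene of CD150, whose tag drew the gate. The list's sum was 1422 and 1815 CPM against 751 and 604 CPM. Of the lymphoid, myeloid, erythroid, stromal and general blood cell lists, 0 genes were at least 2-fold higher. The lymphoid list summed to 60.4 and 57.7 CPM in the gate against 1100 and 1228 CPM, and 3 of its genes (Dntt, Flt3 and Ighm) were at least 2-fold lower in both libraries, against 1.52% of all genes. Of the 5 myeloid genes, 3 (Mpo, Elane and Ctsg) were also at least 2-fold lower, and of the 8 general blood cell genes 1 was, Cd48, the gene of a protein whose tag drew the gate. Of 15 megakaryocyte and platelet genes, Vwf was again among those higher, and the list summed to 355 and 482 CPM against 88.2 and 154 CPM. Its part in the levels of the 10 genes was not tested.

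Other genes shared the profile of the 10. Over 12 groups of cells (the 3 other gates and the 3 CLCA3A1 parts, in each library) and 7609 genes with at least 100 UMIs in the gate, the mean profile of the 10 was most like that of Cd63 (r = 0.993), Ndn (0.991), Gng11 (0.991), Ubl7 (0.989) and Tcf15 (0.987), followed by Fbxo9, Sla2, Cpne8, Clec2d and Epb41 (0.982 to 0.986). Ndn, the gene of necdin, was at 53.7 and 88.5 CPM in the CD150-high CD48-low gate against 9.86 and 14.2 CPM, and Tcf15, a transcription factor gene, at 35.1 and 61.3 CPM against 4.25 and 10.5. For 8 of the 10 genes the closest single gene was Cebpb for Cldn5 (0.991), Pam for Ramp2 (0.984), Slfn2 for Clec1a (0.986), Tcf15 for Tgm2 (0.992), Trip6 for Cavin2 (0.987), Cd9 for Esam (0.974), Snap47 for Tek (0.921) and Capns1 for Emcn (0.928). The groups share libraries and are no replicates, so these correlations are a description. Between the 10 genes themselves, Clec1a and Cavin2 were closest (r = 0.978), and Cldn5 and Emcn were far apart (0.242).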

How the data were processed

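Libraries were made with a 3′ droplet kit (10x Chromium, version 3 chemistry). The count matrix deposited by the authors holds UMI counts per gene and cell, made with Cell Ranger 3.1.0 per the submitters' processing notes, which also name mm10/GRCm38. The authors combined and normalized both libraries in its aggregation step, whose mode is not given in the sources used here, so each library's depth before it is unknown. The tag values deposited by the authors are log10 of tag counts from CITE-seq-Count, and 10 to the power of each finite value was whole (100%, within 1e-06). A deposited log10 of minus infinity was read as 0 tags. Transcript strand handling is not given in the sources used here.

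Python 3.11.15 with numpy 2.4.6, scipy 1.17.1 and pandas 2.3.3 was used, scanpy 1.11.5 for doublet calls (scrublet at an expected rate of 0.06, 5 and 32 cells called, kept in all results) and matplotlib 3.10.9. Levels are summed UMIs per 1000000. Sums carry exact Poisson, ratios exact conditional binomial and shares Clopper-Pearson intervals at 95%, and a level of 0 was set to 3 counts for a lower bound. Called ratios have 10 CPM added, with a minimum of 50 UMIs over the cells with tags or 30 in the CD150-high CD48-low gate. Code was tested on simulated data. With 1 library per age and no key from barcode ending to age, no p-value was possible and old and young cells were not compared.

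The members and all lists were chosen with earlier results of these data known. Named are the 10 members, up to 4 genes per list with the most UMIs in the gate, genes that passed a limit, and the genes most like the members in profile. The closest gene in profile to Tie1 and to Eng is not reported here.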

Additional observations from a re-analysis of the deposited data

Results flagged for a closer look

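For Cldn5, Clec1a, Tgm2, Cavin2 and the sum of the 10, the CLCA3A1-high to CLCA3A1-low ratio lay on opposite sides of 1 in the libraries. Their counting intervals did not overlap between the libraries, whereas other genes of the 10 lay on opposite sides with overlapping intervals. The share of all genes that did so is not given here, so this is not read as particular to the 10 genes. Each value is the log2 ratio of CPM plus 10 in library 1 less that in library 2. It was 1.79 for Cldn5 (1.10 against -0.69), 1.82 for Clec1a (1.54 against -0.27), 0.94 for Tgm2 (0.89 against -0.05) and 2.20 for Cavin2 (2.06 against -0.14). For the sum, the ratio in library 1 was 1.67 times that in library 2. In library 2 the intervals of Tgm2 and Cavin2 held 1, so a fall there was not shown for these genes. The value of Cldn5 in library 1 rested on 9 UMIs, 8 of them in 1 cell, and the counting intervals do not cover such spread between cells. The differences were not tested, since each library is 1 sample.

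The 10 genes were also present in cells outside the gates. In kept cells without tag values they summed to 276 CPM (27 cells) in library 1 and 374 CPM (55 cells) in library 2. In cells below the limit on genes or above that on mitochondrial UMIs they summed to 349 CPM (172 cells) and 845 CPM (448 cells). The last value lay between those of the CD150-low CD48-low and CD150-high CD48-high gates of that library.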

How the results depend on the processing

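No paired analysis was possible because each age gave 1 library and its barcodes are not paired with an age. Counting intervals leave out variation between mice, and each value rests on 1 library. The sum of the 10 genes in the CD150-high CD48-low over the CD150-low CD48-high gate, 5.21, stayed above 1 in every alternative run. It was 3.71 with CD150 at the 90th and CD48 at the 10th percentile, 6.02 with both at the median, 4.13 with centred log ratios of the tags, 6.88 with a stricter cell filter (under 5% mitochondrial UMIs and over 2500 genes, 57 cells in the gate), 4.56 with equal weight per cell, 5.42 with median-of-ratios size factors, 4.52 with thinned cells, 3.35 and 5.61 in library 1 and library 2 alone and 6.14 with common thresholds. The count of 4 genes at least 2-fold higher in both libraries became 8 with 1 CPM added in place of 10, and lay between 3 and 6 otherwise. The share of all genes is not given for these alternatives.

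The ratio of CLCA3A1-high to CLCA3A1-low cells over both libraries, 1.01, was 1.61 with both tags at the median, 1.12 with centred log ratios, 1.52 with the stricter filter, 1.26 without cells holding a defining endothelial UMI, 1.53 and 0.920 in the libraries alone, and, added after the data were seen, 1.08 with cells ranked by unmapped tags and 1.19 with cells ranked by the CD150 tag. The count of 0 genes at least 1.5-fold higher in both was 2 with both tags at the median, 1 with the stricter filter, 4 in library 1 alone (against 5.00% of all genes) and 1 with cells ranked by CD150. The share of all genes in both libraries at once is not given for these alternatives. In libraries 1 and 2 singly it was 1.5% and 1.14% at the median, 16.8% and 15.6% with the stricter filter and 6.57% and 0.826% with CD150. The median of 5 genes per cell was 4 with both tags at the median, with centred log ratios, without the cell filter and without cells holding an endothelial UMI, and 3 with the stricter filter, in library 1 alone and at 5000 UMIs.

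For single genes, 10 log2 ratios of CPM plus 10 changed sign among those whose interval left out 1 as reported. For Cldn5 between CLCA3A1-high and CLCA3A1-low cells these were -0.18 (tag share) and -0.58 (common thresholds) in library 1, and 0.90 (median), 0.46 (no endothelial UMI), 0.44 (unmapped tags) and 0.74 (CD150) in library 2. For Clec1a in library 2 they were 0.52 (median) and 0.19 (centred log ratios). Esam between the libraries was -0.29 with the 90th and 10th percentiles, and Emcn between the gates of library 1 was -0.014 with the stricter filter. The cause was not tested. Values not apart from 1 also crossed it, such as Cavin2 and Tgm2 between the CLCA3A1 parts of library 2, from -0.14 to 1.95 (stricter filter) and from -0.05 to 0.63 (median). Cldn5, Ramp2 and Cavin2 stayed at least 2-fold higher in library 2 in all 12 settings of that comparison.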
